A study of Zea mays with 6 samples.

Results

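The plastid genome of maize was described here through the rows of the leaf expression table whose locus lies on the plastid chromosome (Pt). That choice rests on position alone and took 51 of the 39604 rows. The table compares the developing, still wrapped 11th leaf of greenhouse plants at vegetative stage 8 from homozygous hda108/hda108 mutants with the same leaf of wild-type plants. The labels describe 3 strand-specific libraries of each genotype, from total RNA without its ribosomal part, called biological replicates. The mutated gene, HDA108, codes for an enzyme that takes acetyl groups off histones. The unit of the deposited values is FPKM, fragments per transcript length and per number of fragments mapped, and the authors give 1 value for each genotype from its libraries. No difference below has a replicate check, no test across plants could be run, and the depth behind the values is unknown.

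The plastid genome is a small circular chromosome inherited from a cyanobacterial ancestor. It encodes core subunits of both photosystems, the cytochrome b6f complex, the ATP synthase, the NDH complex and the large subunit of rubisco, together with ribosomal proteins, ribosomal and transfer RNAs and a bacterial-type RNA polymerase. Most of its genes are transcribed in clusters, and a large inverted repeat carries a second copy of some of them. The remaining subunits, the sigma factors that direct the plastid polymerase and the proteins that process plastid RNA are encoded in the nucleus.

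None of the 51 identifiers has a name in the RefSeq table (assembly Zm-B73-REFERENCE-NAM-5.0), so loci were named by position. The 51 rows fall into 37 distinct locus entries, of which 15 have the start and end of 1 RefSeq plastid gene, with table starts 1 base lower, as in a count from 0. A further match of 1 end brought this to 30 entries, and this was taken to show that both tables use the same plastid map. A name such as "psbB-psbT locus" therefore states which named protein genes the entry overlaps, from the first to the last; it is not an annotation of the identifier. Coordinates are those of the deposited table (B73 RefGen_v3). Of the 76 named protein genes in the RefSeq plastid record, 61 are overlapped by an entry. The other 15 were not analysed here, among them psbA, psaA, psaB and atpA, which encode core proteins of photosystem II, photosystem I and the ATP synthase. The longest stretch with no entry runs for 15895 bases, from 34639 to 50534.

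The library pool headed as homozygous, taken here for hda108, had 3.06 FPKM for HDA108 (GRMZM2G136067), against 10.9 FPKM in the wild-type pool. As a check of the tissue, the leaf carbon fixation genes me3 and pep1 had 196 and 85.6 FPKM in hda108, and 384 and 167 FPKM in wild type. The meristem gene kn1 (GRMZM2G017087) had 0.0224 FPKM in hda108 and 0.0245 FPKM in wild type.

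Plastid transcripts differed little between the genotypes where they could be compared. A comparison was made for rows detected in both genotypes at 1 FPKM or more on average, which held for 25 of the 51. Of these, 17 had a lower and 8 a higher value in hda108. Differences are on the scale of log2(FPKM + 0.5), with wild type subtracted from hda108, a scale that understates the change of low values, and values in parentheses after a pair of FPKM are these log2 differences. The median over the 25 rows was -0.12, with quartiles of -0.31 and 0.01. The quartiles of all compared rows of the table were -0.12 and 0.23, so small differences were not particular to plastid rows. The count of 17 lower rows is 68%, beside 40.3% of the 21057 rows compared in the whole table, whose median was 0.06. A 2-fold difference (a log2 difference of 1) was reached by 1 plastid row upward (4%), beside 2.31% of all rows in either direction and 1.48% upward, and by 0 downward, beside 0.836%. In bulk tissue, fewer cells or plastids of a kind and less RNA in each cannot be told apart. Without rows that share a locus entry, the median was -0.20.

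**Figure D1:**
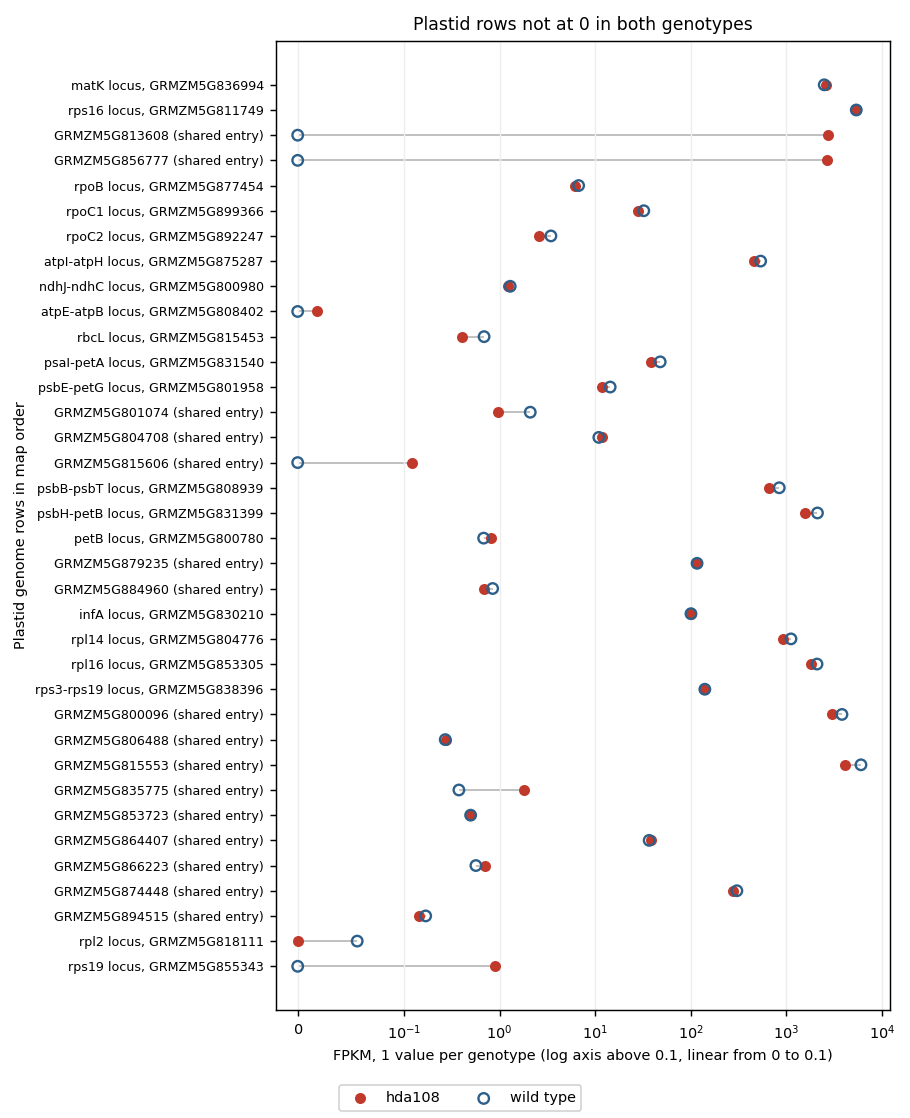
FPKM of 36 of the 38 plastid rows that are not at 0 in both genotypes, in map order; filled points are hda108 and open points wild type, with 1 value per genotype and a log axis above 0.1. Most pairs of points touch, while 2 rows of a shared entry have 2706 and 2634 FPKM in hda108 and are listed at 0 in wild type.

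Photosynthesis loci with an entry of their own all had lower values in hda108 where compared. There were 6 such loci, beside 68% of all compared plastid rows and 40.3% of all compared rows that were lower. Their median log2 difference was -0.29, with a range of -0.42 to -0.05. The widest difference was that of the psbH-petB locus (GRMZM5G831399, 72773 to 73328), which overlaps the gene of a small photosystem II subunit and the first part of the gene of cytochrome b6. It had 1578 FPKM in hda108, against 2113 FPKM in wild type (-0.42). The neighbouring psbB-psbT locus (GRMZM5G808939, 70705 to 72490), where psbB encodes the CP47 core antenna protein of photosystem II, had 662 FPKM in hda108, against 842 FPKM in wild type (-0.35). Both neighbours thus stood at 74.7% and 78.6% of the wild-type value. The entry over the later part of petB (GRMZM5G800780, 73841 to 74543) had only 0.805 FPKM in hda108 and 0.682 FPKM in wild type, far below its neighbour in both genotypes.

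The psaI-petA locus (GRMZM5G831540, 59193 to 62447) spans the genes of a photosystem I subunit, a photosystem I assembly factor (ycf4), an envelope membrane protein (cemA) and cytochrome f (petA). It had 38.4 FPKM in hda108, against 47.9 FPKM in wild type, a difference of -0.31. The psbE-petG locus (GRMZM5G801958, 63866 to 65748) overlaps the gene of a cytochrome b559 subunit (psbE) and genes of small cytochrome b6f subunits. It had 11.9 FPKM in hda108, against 14.4 FPKM in wild type (-0.26). The atpI-atpH locus (GRMZM5G875287, 32819 to 34639) encodes membrane subunits of the ATP synthase. Its level was 455 FPKM in hda108, against 538 FPKM in wild type (-0.24). The smallest difference of this class was that of the ndhJ-ndhC locus (GRMZM5G800980), which encodes subunits of the NDH complex of cyclic electron flow, at 1.23 FPKM in hda108 and 1.29 FPKM in wild type. These 6 loci summed to 2746 FPKM in hda108, 77.2% of the 3556 FPKM in wild type. The neighbouring psbH-petB and psbB-psbT loci carry most of both sums. The psaI-petA, psbE-petG, atpI-atpH and ndhJ-ndhC loci stood at 80.3%, 83.1%, 84.6% and 95.2% of the wild-type value.

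Other photosynthesis entries had values too low to be compared. The rbcL locus (GRMZM5G815453, 56823 to 58323) covers the gene of the rubisco large subunit, one of the most abundant leaf proteins. It was listed at 0.409 FPKM in hda108 and 0.689 FPKM in wild type. The atpE-atpB locus (GRMZM5G808402), for soluble subunits of the ATP synthase, was listed at 0.0180 FPKM in hda108 and at 0 in wild type. These levels stand far below those of the psbB-psbT and atpI-atpH loci in the same table. The table gives neither strand nor status of an estimate, so how reads of these loci were assigned was not tested.

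The bacterial-type RNA polymerase genes with an entry of their own were also lower in hda108, at all 3 loci. With 68% of all compared plastid rows lower, 3 loci are too few to set this class apart. Each of these loci has both ends at a RefSeq gene. Their median difference was -0.20. The polymerase gene rpoA is not among them, because it lies in an entry shared with petD. Of the 2 rows of that entry, GRMZM5G879235 had 116 FPKM in both genotypes, and neither row can be tied to rpoA by position. The rpoB locus (GRMZM5G877454, 21467 to 24695), for the beta subunit, had 6.15 FPKM in hda108, against 6.71 FPKM in wild type (-0.12). The rpoC1 locus (GRMZM5G899366, 24732 to 26784) had 28.0 FPKM in hda108, against 32.2 FPKM in wild type (-0.20). The rpoC2 locus (GRMZM5G892247, 26982 to 31566) had 2.56 FPKM in hda108, against 3.44 FPKM in wild type (-0.37). These neighbouring genes, known as one transcribed cluster in plastids, differed more in level from each other than between the genotypes, with rpoC1 the highest in both.

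Translation genes lay closer to no difference. Of 11 rows over genes of ribosomal proteins or the initiation factor infA, 7 were compared, 3 higher and 4 lower, with a median of -0.01. The rps16 locus (GRMZM5G811749, 3362 to 5604), for a small-subunit protein, was the highest plastid row with an entry of its own. It had 5331 FPKM in hda108, where it ranked 1 in the whole table, and 5378 FPKM in wild type, where it ranked 3. The infA locus (GRMZM5G830210), for a translation initiation factor, differed by 0.01, at 101 FPKM in hda108 and 100.4 FPKM in wild type.

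The widest lower values of the translation class were at genes of large-subunit proteins. The rpl14 locus (GRMZM5G804776, 79037 to 79409) had 926 FPKM in hda108, against 1116 FPKM in wild type (-0.27). The rpl16 locus (GRMZM5G853305, 79518 to 79881), whose entry covers only part of that gene, had 1812 FPKM in hda108, against 2090.1 FPKM in wild type (-0.21). The rps3-rps19 locus (GRMZM5G838396), which also overlaps rpl22, had 137 FPKM in hda108 and 140.25 FPKM in wild type (-0.04). The rps2 locus (GRMZM5G809869) was listed at 0 in both genotypes, although it lies between rpoC2 and atpI. The matK locus (GRMZM5G836994, 1673 to 3308), for the maturase that helps to splice plastid introns, had 2566 FPKM in hda108 and 2487 FPKM in wild type (0.05). The entries of matK and rps16 also overlap the transfer RNA gene trnK, so part of their reads may belong to it.

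**Figure D2:**
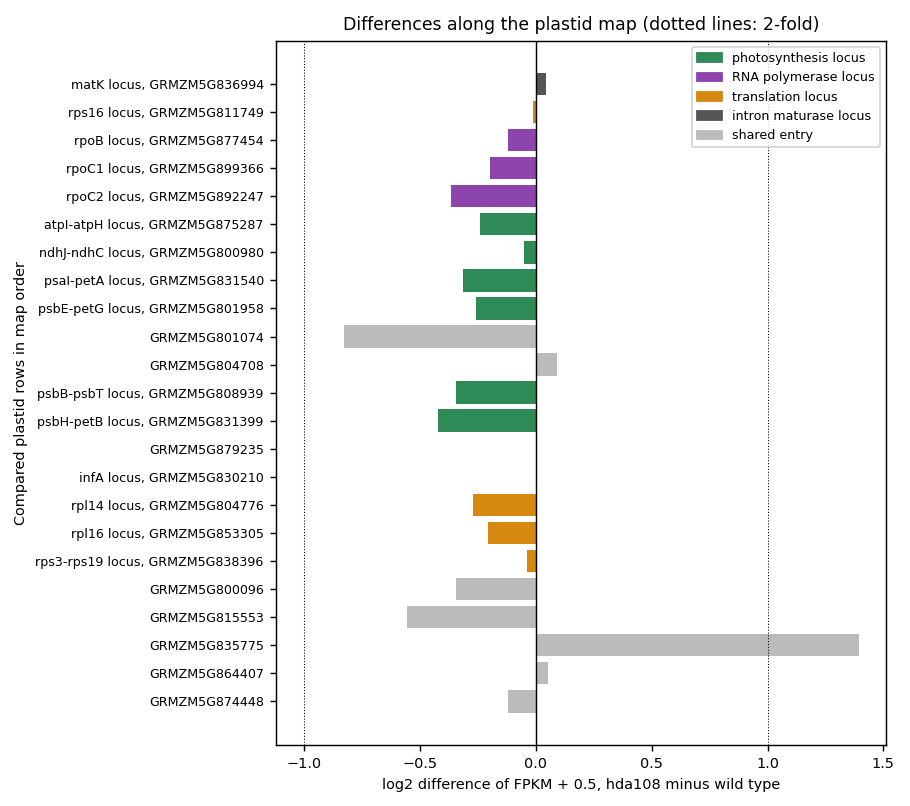
Difference on the scale of log2(FPKM + 0.5), wild type subtracted from hda108, for 23 of the 25 compared plastid rows in map order, coloured by the kind of genes the entry overlaps; dotted lines mark 2-fold. All bars of photosynthesis and RNA polymerase loci with an entry of their own point to lower values in hda108, between -0.42 and -0.05. Of all 25 compared plastid rows, 17 were lower. The 1 bar past 2-fold (1.39) and the longest lower bar (-0.83) belong to shared entries.

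Rows that share a locus entry made up 18 of the 51 (35.3%), beside 5.91% of the whole table, in 4 entries. They cannot be tied to single genes by position, and reads of overlapping rows could have been divided among them. The largest differences of compared rows lie here. GRMZM5G835775 was the row past 2-fold, with 1.801 FPKM in hda108 and 0.376 FPKM in wild type (1.39). GRMZM5G801074 had 0.963 FPKM in hda108 and 2.09 FPKM in wild type (-0.83). Both have low values, and of the 20 plastid rows with a mean of at least 10 FPKM, 0 reached 2-fold in either direction, beside 1.49% of the 8766 rows of the whole table at that level, so a count of 0 among 20 is near the background.

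The entry from 6391 to 15097 holds 2 rows that could not be compared. It overlaps psbK, psbI, psbD, psbC and psbZ, genes of photosystem II that include those of the D2 protein and the CP43 antenna. GRMZM5G813608 was listed at 2706 FPKM in hda108 and at 0 in wild type. GRMZM5G856777 was listed at 2634 FPKM in hda108 and at 0 in wild type. They ranked 7 and 9 among all rows in hda108. A listed 0 may also stand for an estimate that failed, so no fold is given and the wild-type zeros say nothing of the level of these transcripts.

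The entry from 91652 to 131084 is 39432 bases long and holds 11 rows. It begins and ends at mirrored positions of the inverted repeat and overlaps 12 named protein genes, most of them of the NDH complex, and all 8 ribosomal RNA genes of the RefSeq plastid record. GRMZM5G815553 had 4099.55 FPKM in hda108, against 6024 FPKM in wild type (-0.56). GRMZM5G800096 had 3004 FPKM in hda108, against 3812 FPKM in wild type (-0.34). Both rows were lower in hda108, and the libraries were depleted of ribosomal RNA. How far that depletion or reads of ribosomal RNA bear on these rows was not tested. GRMZM5G874448 had 279 FPKM in hda108, against 303 FPKM in wild type, and GRMZM5G864407 had 38.04 FPKM in hda108, against 36.7 FPKM in wild type. The other 6 rows of the entry, not counting GRMZM5G835775, were below 1 FPKM in both genotypes, 2 of them at 0 in both.

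The entries with a shared position at 66311 to 70204 (psaJ to clpP, 3 rows) and 75427 to 77189 (petD and rpoA, 2 rows) held 1 row each with more than 10 FPKM. GRMZM5G804708 had 11.7 FPKM in hda108 and 10.9 FPKM in wild type (0.09). GRMZM5G879235 had 116 FPKM in both genotypes.

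Many of the zeros lay in the inverted repeat. In both genotypes 13 plastid rows were listed at 0 (25.5%), beside 22.3% of the whole table. There were 4 pairs of entries at mirrored positions, and their 8 rows were all listed at 0 in both genotypes. Among them are both copies of ndhB (GRMZM5G876106 and GRMZM5G810298), a gene of the NDH complex. The entries over the rpl2 copies were listed at 0 in both genotypes (GRMZM5G899836) and at 0 in hda108 and 0.0560 FPKM in wild type (GRMZM5G818111). A read from a gene present in 2 copies aligns equally well to each, and how such reads were treated is not given in the sources used here. Whether the treatment of such reads bears on these zeros was not tested, and the zeros do not show absent transcripts. Outside the mirrored pairs lay 5 rows at 0 in both genotypes, among them the rps2 locus.

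At 0 in exactly 1 genotype were 6 rows (11.8%), beside 6.33% of the table, 5 of them at 0 in wild type. Besides the pair at 6391 to 15097, these were the atpE-atpB locus, GRMZM5G815606 of the psaJ to clpP entry at 0.120 FPKM in hda108, and the rps19 locus GRMZM5G855343 at 0.896 FPKM in hda108. The sixth was the rpl2 locus GRMZM5G818111, at 0 in hda108. Apart from the pair, all had less than 1 FPKM in the genotype where they were detected.

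The share of plastid rows in the summed FPKM depended on that pair. Over all rows it was 5.69% in hda108 and 5.44% in wild type. Without rows at 0 in 1 genotype it was 4.67% in hda108 and 5.44% in wild type, the opposite order. Without shared entries it was 3.32% in hda108 and 3.62% in wild type. The plastid rows above 0 in both genotypes or in neither summed to 22088 FPKM in hda108, 84.8% of the 26063 FPKM in wild type. Much of that gap lies in GRMZM5G815553 and GRMZM5G800096, of the entry over the ribosomal RNA genes. They had 4099.55 and 3004 FPKM in hda108, against 6024 and 3812 FPKM in wild type. Plastid rows with an entry of their own summed to 14535 FPKM in hda108, 92.3% of the 15755 FPKM in wild type. Which order holds for the leaf cannot be told from these values.

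**Figure D3:**
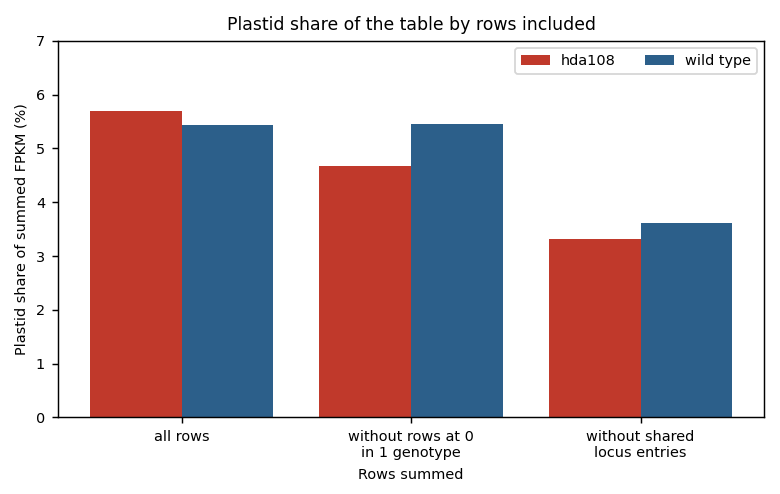
Plastid share of the summed FPKM in percent, with hda108 as the left and wild type as the right bar of each pair and 1 value per genotype. The hda108 share is the higher one over all rows (5.69% against 5.44%) and the lower one without rows at 0 in 1 genotype (4.67% against 5.44%) or without shared entries (3.32% against 3.62%).

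The organelle genomes had medians of opposite sign. The 25 compared plastid rows had a median of -0.12, the 46 mitochondrial rows 0.28, with 42 higher and 4 lower in hda108, and the 20986 nuclear rows 0.06. Among rows with a mean of at least 100 FPKM, 10 of 15 plastid rows were lower (median -0.12), 0 of 11 mitochondrial rows (median 0.33) and 307 of 644 nuclear rows (median 0.01). With 1 pool per genotype no test of these differences between compartments was possible. FPKM are relative to all mapped fragments, and with the values scaled to the plastid sum the plastid median was 0.10.

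**Figure D4:**
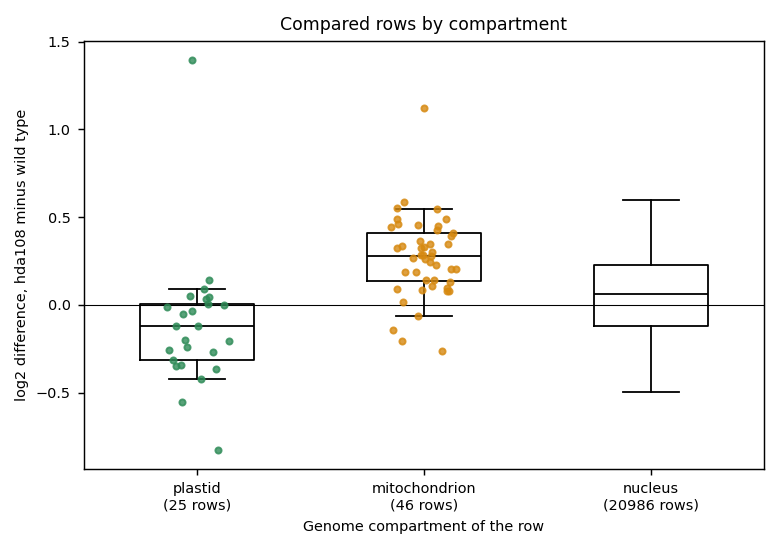
Difference on the scale of log2(FPKM + 0.5), wild type subtracted from hda108, by genome compartment of the compared rows; boxes show quartiles and median, whiskers the 5th and 95th percentiles, and points single organelle rows. The plastid box lies mostly below 0 (median -0.12), the mitochondrial box above it (median 0.28) and the nuclear box around 0.06.

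Nuclear genes taken to serve the plastid genome were listed by gene name alone. Of the 38 members compared in 6 such lists, 0 reached 2-fold in either direction. Beside 2.31% of all rows, that count too is near the background. A further list, of plastid ribosomal proteins, held 2 rows (prpl35-1), both below 1 FPKM. The counts of lower members below can be read beside the 40.3% of all rows that were lower. For nuclear rows with a mean of at least 100 FPKM, a level that many photosynthesis genes reach, that share was 47.7%. All 4 compared sigma factor genes were lower in hda108, with a median of -0.26. They were sig6 (GRMZM2G144196) at -0.35, sig1 (GRMZM2G006736) at -0.35, sig3 at -0.16 and sig2A at -0.09. The phage-type polymerase genes rpo2 and rpot1, which were not shown here to act in plastids, differed by -0.14 and 0.01. Of 13 genes named for plastid RNA processing or as pentatricopeptide repeat (PPR) genes, not all of them known to act in plastids, 12 were lower, with a median of -0.22. The widest difference was that of PPR10 (GRMZM2G177169), a maize protein that binds and protects the ends of atpH and psaJ RNAs, at 3.70 FPKM in hda108 and 5.79 FPKM in wild type (-0.58). The gene crp1 (GRMZM2G083950), needed in maize for processing of petB and petD RNA, had 2.47 FPKM in hda108 and 3.91 FPKM in wild type (-0.57).

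Nuclear partners in the photosynthetic complexes were lower as well. Of 9 compared genes for photosystem or ATP synthase subunits and assembly factors, 8 were lower, with a median of -0.36. The ATP synthase gamma subunit gene atpc1 (GRMZM5G862663) had 50.1 FPKM in hda108, against 90.7 FPKM in wild type (-0.85). The photosystem I assembly gene PSA3 was the exception (0.06). All 7 light-harvesting genes were lower (median -0.36), and so were all 3 compared genes of the rubisco small subunit and activase (median -0.74). The lists share the control pool and the scale with the plastid rows, so their common direction is not independent of it.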

How the data were processed

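Total RNA of the developing leaf, without its ribosomal part, was sequenced from 3 hda108 and 3 wild-type strand-specific libraries. The deposited FPKM were made by the authors, with 1 value per gene and genotype. Tools named without role or settings in the submitters' processing notes are TopHat2 2.0.13, Cufflinks, Cuffdiff 2.2.1, Trimmomatic 0.33, SAMtools and CASAVA 1.8, with B73 RefGen_v3 as the build. The column headed as homozygous was taken for hda108. Depth, the strand of each row and the scaling between libraries are not given in the sources used here.

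limma, planned for values per library, could not be run on pooled values, so a size rule of 2-fold on log2(FPKM + 0.5) was used. It was run on simulated data with planted folds wider than the limit, little noise and well expressed rows only, as a check of the calculation. That run says nothing of the spread between plants or of rows with low values. Calculations covered the whole table (21057 compared rows), with Python 3.11.15, numpy 2.4.6, pandas 2.3.3 and matplotlib 3.10.9. Plastid loci were named by overlap of at least 1 base with RefSeq plastid genes, the planned prefix classes being merged into photosynthesis, RNA polymerase and translation because entries span several prefixes. Nuclear names came from RefSeq synonyms, for 18539 identifiers with 1 entry.

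Named rows were to be the 8 largest differences in each direction, the 5 highest means, rows at 0 in 1 genotype with at least 1 FPKM in the other, and rows past 2-fold; further rows were picked with their values known, and 2 rows are not reported here, though they stay in the counts and medians. The members, lists and name patterns were chosen with earlier results of these data known. Alternatives covered pseudocount, filter, scaling, shared entries and short loci.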

Additional observations from a re-analysis of the deposited data

Results flagged for a closer look

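High values stand outside the comparison at the entry from 6391 to 15097 that overlaps psbK to psbZ. GRMZM5G813608 was listed at 2706 FPKM and GRMZM5G856777 at 2634 FPKM in hda108, both at 0 in wild type. The rows share 1 entry, so they are not separate observations.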

How the results depend on the processing

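No paired analysis was possible because each genotype has only 1 pooled value, and for the same reason no replicate could be left out. The plastid median of -0.12 stayed below 0 under all alternatives except scaling to the plastid sum, where it was 0.10, with 10 rows lower; that scaling moved the median of all genes to 0.28. With it the medians were -0.052 for photosynthesis loci, 0.037 for RNA polymerase loci and 0.23 for translation loci, 0.50 for mitochondrial rows, and, for nuclear lists, -0.13 for light-harvesting genes, -0.12 for photosystem and ATP synthase genes, 0.010 for RNA processing factors, -0.50 for rubisco genes and -0.033 for sigma factors. With quantile normalization the medians were -0.13 for photosynthesis loci, 0.11 for translation loci and -0.22 for nuclear photosystem and ATP synthase genes. It moved 10 single plastid rows by 0.1 or more and left 15 within that limit. Among those moved, the psbH-petB locus was at -0.06, psbB-psbT at -0.07, rpl14 at -0.10 and rpl16 at 0.13, a change of sign. Scaling to the plastid sum multiplies every hda108 value by the same factor, which comes from the plastid rows above 0 in both genotypes. It therefore raises every difference, by construction. Why quantile normalization moved these medians and rows was not tested. The count past 2-fold upward was 0 with a mean of at least 10 FPKM, with a mean of at least 100 FPKM (where 10 rows were lower), without shared entries and with 1 value per shared entry, because the single row is a low one in a shared entry. With a pseudocount of 0.1, 1 row (GRMZM5G801074, -1.05) passed 2-fold downward. The plastid share, hda108 minus wild type, was 0.25 percentage points over all rows. It was -0.78 without rows at 0 in 1 genotype, -0.30 without shared entries and -0.81 without the pair at 6391 to 15097. The filter at 100 FPKM and the omission of that pair were chosen after the data were seen. Classes by entries of their own were the only version used, since rows of shared entries carried no name. Unknown depth limits how firmly low values can be read.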
